A study of Mus musculus with 8 samples.

Results

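Secretory granule proteins and transcription factors of endocrine cells were followed through the small intestine of mouse fetuses that lack Plagl2, a zinc finger protein of the PLAG family that binds DNA. There were 10 genes. The granule genes were Chga, Chgb, Scg2, Scg3, Scg5 and Pcsk1 (6 genes), and the transcription factor genes were Neurod1, Pax4, Pax6 and Isl1 (4 genes). They were taken by name, as every probe set of the array whose annotation gives exactly 1 gene symbol and that symbol is one of these, which gave 16 of 45101 probe sets and 10 of 18194 named genes. The samples were 4 knockout and 4 wild-type small intestines taken at 18.5 days post coitum, each hybridised to 1 Affymetrix MOE430 2.0 array. Genotype was the only stated difference between the groups. The labels do not give the strain, the part of Plagl2 that is missing, the sex of the fetuses, or whether samples come from separate litters or pooled fetuses, so the p-values cover only the spread among these arrays, which may be technical. The notes on RNA extraction mention wild-type tissue for every sample, while the titles, the source names and the design name 4 knockouts.

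Enteroendocrine cells are scattered hormone-secreting cells of the gut epithelium. They store peptide hormones in dense-core granules, which also hold the granins (chromogranins and secretogranins), acidic proteins that help granules form. Prohormone convertases in the granule cut hormone precursors at pairs of basic residues. Neurog3 commits epithelial progenitors to the endocrine fate, and Neurod1, Pax4, Pax6 and Isl1 act after it in the differentiation of hormone-producing cells. Granins are also made by neurons, including those of the gut wall, and by pancreatic islets.

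Signals are the authors' scaled intensities on a linear scale, and array medians ranged from 36 to 42. Correlations of log2 signals were 0.95 to 0.974 within and 0.926 to 0.948 between genotypes, and wild-type replicate 3 lay closer to the knockouts than the other wild-types did (-21.9 against -44.7 to -43.3 on the leading principal component, where knockouts lay at 35.7 to 40.7). The brightest Plagl2 probe sets gave 697 to 892 in wild-type and 1 to 11 in knockout samples. Xist, transcribed from the inactive X chromosome of females, gave 1828 and 1410 in knockout replicates 2 and 3 and 20 to 47 in the other 6 arrays. Control probe sets at the 3' end over those at the 5' end gave a mean log2 ratio of -0.055 to 0.007 in wild-types and of 0.017 to 0.098 in knockouts, without overlap. The epithelial markers Epcam and Cdh1 gave signals of 2353 to 5041 in every array. Of the defining enteroendocrine markers, Chgb, Sct, Cck and Gip gave 151 or more in every array. Chga was at 33 or more, and the brighter Neurod1 probe set at 25 or more.

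The chromogranin genes Chgb and Chga were lower in the knockout, to 0.486 and 0.504 of wild-type as ratios of signal + 16, an offset that understates the change of low signals, and they were the only 2 of the 8 member genes tested that passed the threshold, a Benjamini-Hochberg adjusted p under 0.05 in limma over all 27023 probe sets tested. Across all 12838 genes tested, 8.50% were called lower, 6.60% higher and 15.1% either way. None of the member genes was called higher. Counted by probe set, 2 of 9 tested member probe sets were called, both lower, beside 12.0% of all tested probe sets (6.70% lower and 5.28% higher). Groups did not overlap in 3 of the 9, those of Chgb, Chga and 1 of Neurod1, beside 17.0% of all tested probe sets, and in 3 of all 16 members beside 11.4% of all probe sets other than controls. No transcription factor gene was called (0 of 2 tested; the unadjusted p was under 0.05 for 1 of their 3 tested probe sets). In bulk tissue, fewer cells of a type and less RNA per cell cannot be told apart.

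Chgb encodes chromogranin B, a core protein of the granule matrix. Its probe set 1415885_at gave signals of 672, 863, 558 and 692 in wild-type replicates 1 to 4 and of 430, 260, 391 and 257 in knockout replicates 1 to 4. Every knockout array lay under every wild-type array, and the lowest wild-type value was that of replicate 3. The means were 696.2 ± 125.9 (SD, n = 4) and 334.5 ± 89.2 (SD, n = 4). On the log2(signal + 16) scale the knockout was lower by -1.04 ± 0.18 (SE; 95% interval -1.44 to -0.65; limma adjusted p = 0.00258). Chgb was called in all 20 alternative fits, with log2 fold changes of -1.47 to -0.93.

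Chga encodes chromogranin A, the granin most used as a marker of endocrine cells. Its probe set 1418149_at gave 126, 145, 63 and 117 in wild-type and 62, 33, 53 and 43 in knockout samples. The groups did not overlap, but by 1 signal unit only: wild-type replicate 3 at 63 lay next to knockout replicate 1 at 62. The means were 112.8 ± 35.2 and 47.8 ± 12.5 (SD, n = 4), and the log2 fold change was -0.99 ± 0.23 (SE; 95% interval -1.49 to -0.49; limma adjusted p = 0.0148). The call ended without wild-type replicate 1 (adjusted p = 0.0537), wild-type replicate 2 (0.0559) or knockout replicate 2 (0.0514), with the replicate number as a block (0.051), with the Xist signal as a covariate (0.116) and in the 6 arrays that lack Xist signal (0.0926), while the estimate stayed between -0.99 and -0.83 in these fits. When the 3' to 5' ratio, which differed between the genotypes, entered as a covariate, both genes were called, Chga at -1.53 (adjusted p = 0.0123) and Chgb at -1.47 (0.00426).

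The log2 fold changes of Chga and Chgb differed by 0.05, less than the spread between arrays (exact two-sided permutation p = 0.83). Their order over the arrays was alike: in both genes wild-type replicate 2 was highest, wild-type replicate 3 lowest of the wild-types, and knockout replicates 2 and 4 the lowest of all. Among the 12838 genes tested, Chga was the fifth closest to Chgb in its profile over the 8 arrays.

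**Figure D1:**
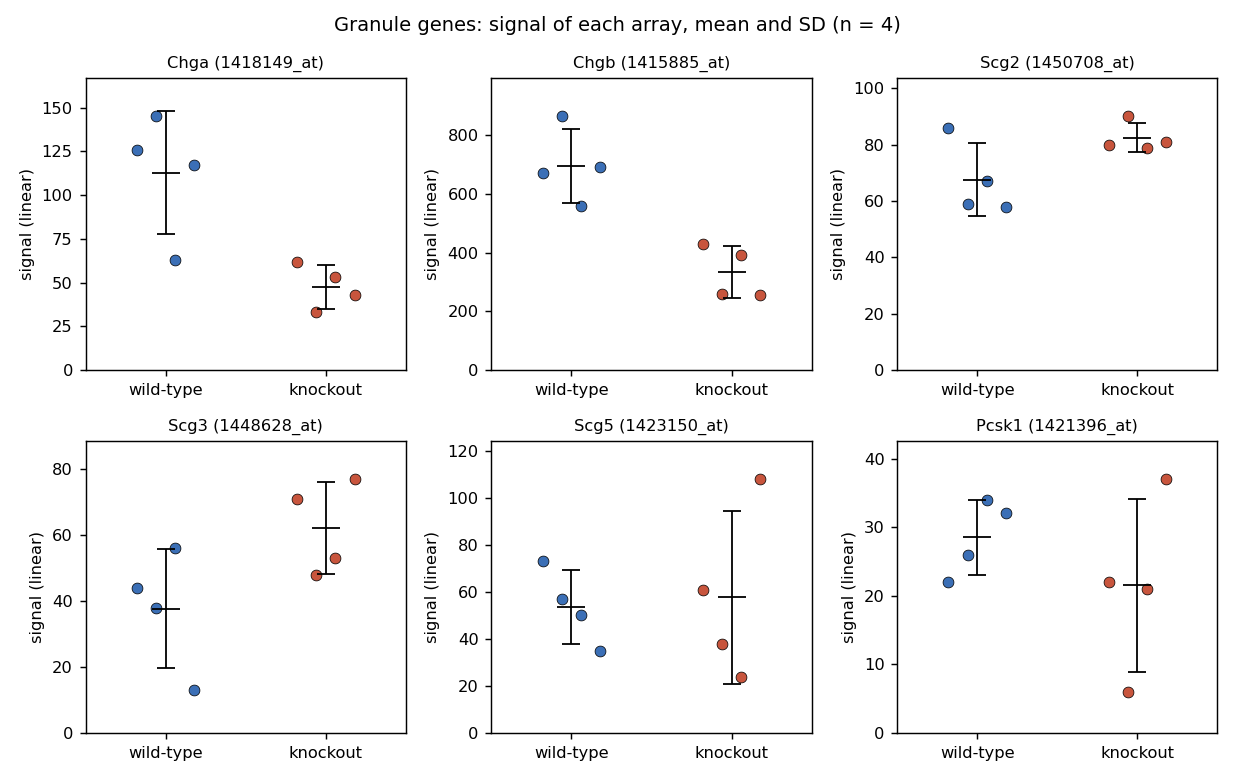
Signal (linear scale) of the 6 granule genes in each of 4 wild-type (blue) and 4 knockout (red) arrays, with the mean and SD as bars. Chga and Chgb separate the genotypes, with knockout Chgb at 257 to 430 under wild-type Chgb at 558 to 863, while the groups overlap for Scg2, Scg3, Scg5 and Pcsk1.

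Chromogranin promoters carry a cAMP response element, a site for CREB family factors, close to the start of transcription. The bases before RefSeq start sites are set side by side here, for members that fell and granule genes that did not pass the test. The sequences were picked because they hold the element or a variant of it. That variant was chosen after the Chga sequence was seen. Scg3 and Scg5, the other granule genes that did not pass, held only the 5-base core of the element and are not shown. Each line gives the 150 bases that end just before the start site, from RefSeq on build GRCm38.p6, read 5′ to 3′ on the strand of the gene. Capitals mark the palindrome TGACGTCA or, in Chga, the variant TGACGTAA.
Chgb, chr2:132781492-132781641, plus strand: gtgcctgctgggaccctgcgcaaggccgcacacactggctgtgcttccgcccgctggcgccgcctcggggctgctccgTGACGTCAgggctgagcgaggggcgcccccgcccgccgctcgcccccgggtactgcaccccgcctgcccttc
Chga, chr12:102554791-102554940, plus strand: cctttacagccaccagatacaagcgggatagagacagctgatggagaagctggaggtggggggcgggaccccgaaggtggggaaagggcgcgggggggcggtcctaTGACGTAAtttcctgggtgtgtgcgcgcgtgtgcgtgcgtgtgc
Scg2, chr1:79440027-79440176, minus strand: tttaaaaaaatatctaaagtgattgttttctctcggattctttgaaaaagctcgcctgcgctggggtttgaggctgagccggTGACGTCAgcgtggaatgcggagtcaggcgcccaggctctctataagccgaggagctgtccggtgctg
Pcsk1, chr13:75089707-75089856, plus strand: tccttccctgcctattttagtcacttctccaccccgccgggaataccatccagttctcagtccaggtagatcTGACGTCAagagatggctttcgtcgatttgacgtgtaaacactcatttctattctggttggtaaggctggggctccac

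Of the members, 9 had entries in the RefSeq promoter table, Pax6 with 2 start sites, which gave 10 windows of 250 bases before the start. The palindrome TGACGTCA was found in 4 of these 10 windows, against 1.55% of all 32851 such windows. It began 72 bases before the start in Chgb, 68 in Scg2, 78 in Pcsk1 and 76 at the upstream start of Pax6. The variant TGACGTAA of Chga, 44 bases before the start, was picked after its sequence was seen and was held by 0.447% of all windows. The shorter core TGACG, which lies within both of these motifs, was found in 9 of the 10 windows and in 17.8% of all. The full element was thus present in Chgb, which fell, and in Scg2 and Pcsk1, for which no change was called, and not in Scg3 and Scg5, for which none was called either.

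E-boxes of the spelling CAGCTG, bound by basic helix-loop-helix factors, were found in Chga and Isl1 (13% of all windows), and CAGATG in none of the member windows (14.4% of all). The bipartite motif described for PLAG family proteins was searched as GGGGC or GAGGC followed by 6 to 8 bases and GGG, on both strands. It was found before Chgb, from 41 bases before the start, and before Isl1, from 239 bases before it, and in 19.9% of all windows. A match of letters is not a shown binding site.

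**Figure D2:**
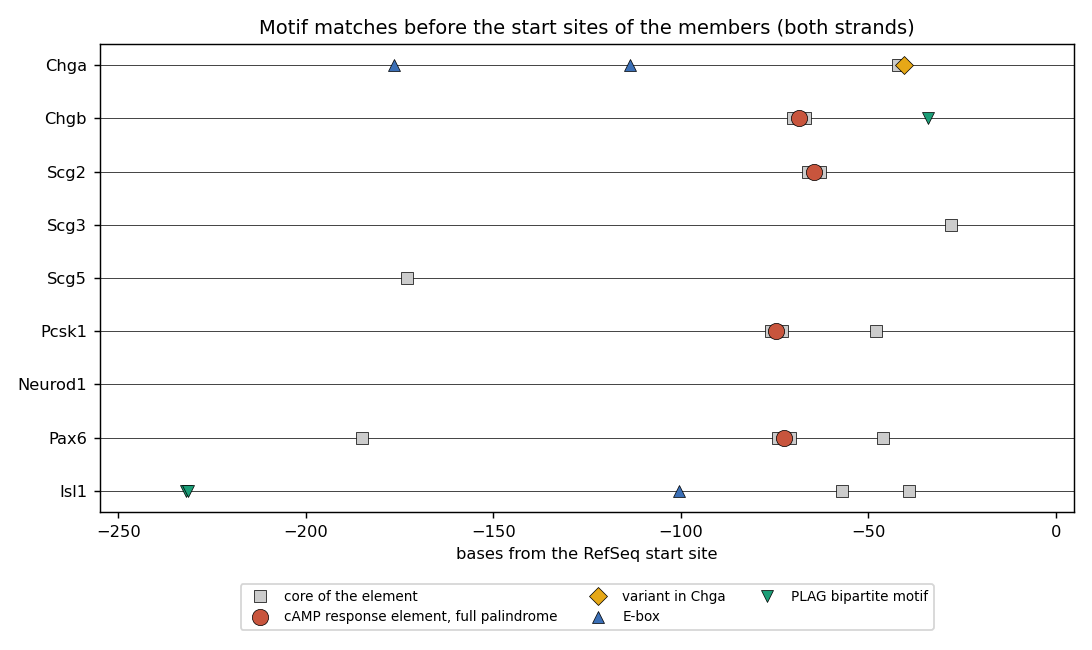
Positions of motif matches in the 250 bases before the RefSeq start sites of 9 member genes, in bases from the start; both start sites of Pax6 share a line and grey squares mark the core that lies within the full element. The full element lies 68 to 78 bases before the start in Chgb, Scg2, Pcsk1 and Pax6.

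The other granins and granule enzymes did not pass the test in either direction. Scg2 encodes secretogranin II, the precursor of secretoneurin. Its probe set 1450708_at gave 86, 59, 67 and 58 in wild-type and 80, 90, 79 and 81 in knockout samples. Only wild-type replicate 1 reached the knockout range. The log2 fold change was 0.25 (95% interval -0.08 to 0.57; limma adjusted p = 0.326).

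Scg3 encodes secretogranin III, which anchors chromogranin A to the granule membrane. Its probe set 1448628_at gave 44, 38, 56 and 13 in wild-type and 71, 48, 53 and 77 in knockout samples. The lowest value of all was wild-type replicate 4, and wild-type replicate 3 lay within the knockout range. The log2 fold change was 0.60 (95% interval 0.02 to 1.18), which did not pass (limma adjusted p = 0.182), and it was 0.33 without wild-type replicate 4.

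Scg5 encodes the chaperone of the prohormone convertase Pcsk2. Its probe set 1423150_at gave 73, 57, 50 and 35 in wild-type and 61, 38, 24 and 108 in knockout samples. Both the lowest and the highest value were those of knockouts, and the 95% interval of the log2 fold change ran from -0.70 to 0.66 around -0.02 (limma adjusted p = 0.976). Its sign changed in 7 of 19 alternative fits, none of which called it.

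Pcsk1 encodes the convertase that processes prohormones in gut endocrine cells. Its signals were low, with probe set 1421396_at at 22, 26, 34 and 32 in wild-type and 22, 6, 21 and 37 in knockout samples. Knockout replicate 2 was far under the rest, and the log2 fold change was -0.31 (95% interval -0.90 to 0.28; limma adjusted p = 0.526). Without knockout replicate 2 it was -0.07.

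The transcription factor genes gave low signals, 3 to 59 in the probe sets tested, and none passed the test. Neurod1 encodes a basic helix-loop-helix factor that follows Neurog3 in endocrine differentiation. Its brighter probe set 1426412_at gave 43, 59, 43 and 51 in wild-type and 42, 25, 38 and 40 in knockout samples. The groups did not overlap, again by 1 unit, as did 19.9% of all genes tested (each represented by its brightest tested probe set). The log2 fold change was -0.32 (95% interval -0.72 to 0.08; limma adjusted p = 0.301). Its other probe set, 1426413_at, gave 36, 55, 50 and 25 in wild-type and 29, 13, 24 and 22 in knockout samples, with overlap through wild-type replicate 4. There the log2 fold change was -0.58 (95% interval -1.09 to -0.07; limma adjusted p = 0.139). Both probe sets had lower knockout means, and Neurod1 was called in 0 of 19 alternative fits (limma adjusted p 0.14, where both probe sets were averaged, to 0.718).

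Isl1 encodes a LIM homeodomain factor of endocrine cells that is also made by neurons and mesenchyme. Its probe set 1450723_at gave 47, 27, 28 and 29 in wild-type and 26, 25, 38 and 3 in knockout samples. The log2 fold change of -0.40 (95% interval -1.07 to 0.27; limma adjusted p = 0.46) shrank to -0.09 without knockout replicate 4, the array at 3. The second Isl1 probe set, 1422720_at, was too dim for the fit (5 to 26 in wild-type, 2 to 15 in knockout samples).

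Pax6 and Pax4 encode paired-domain factors of endocrine subtypes. All 6 of their probe sets lay under the filter on low signal, so they have no value from the fit across the array. The brightest Pax6 probe set, 1419271_at, gave 29, 25, 19 and 13 in wild-type and 8, 3, 5 and 29 in knockout samples. Of the knockouts 3 lay under every wild-type, and knockout replicate 4 lay level with the highest wild-type (exact two-sided permutation p = 0.171, where the smallest possible for 4 against 4 is 0.0286). The 4 other Pax6 probe sets gave 1 to 36 with full overlap. Pax4 (1451598_at) gave 2 to 10 in wild-type and 2 to 23 in knockout samples. Signals this low carry little information on a change in either direction.

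**Figure D3:**
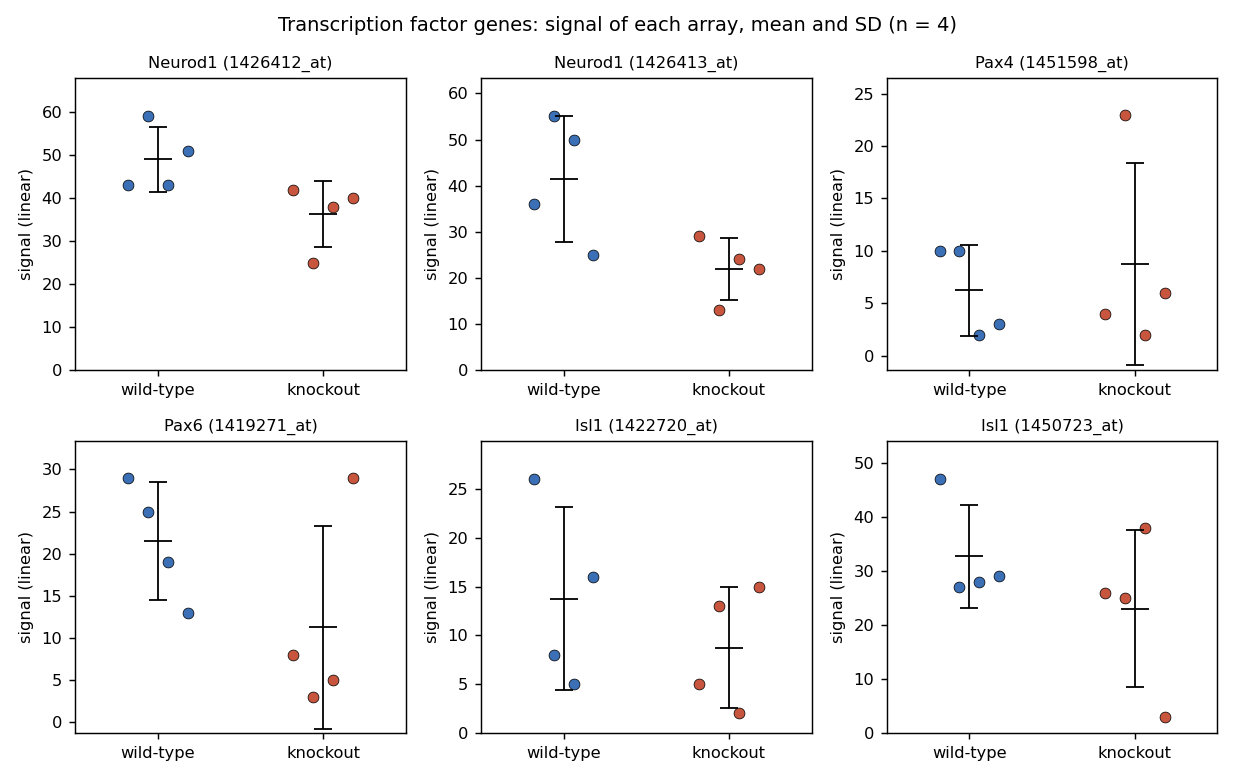
Signal (linear scale) of 6 transcription factor probe sets in each of 4 wild-type (blue) and 4 knockout (red) arrays, with the mean and SD as bars. The groups do not overlap for Neurod1 (1426412_at; 43 to 59 against 25 to 42), and in the other panels they do.

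Granule genes and transcription factors were then compared. The median log2 fold change was -0.16 over the 6 granule genes and -0.36 over the 2 transcription factor genes tested, beside 0.03 over all genes tested. The granule median stands for no single behaviour, since the 6 values ran from -1.04 to 0.60. It turned positive with the Xist signal as a covariate (0.12), in the 6 arrays lacking Xist signal (0.12) and without knockout replicate 2 (0.0066). The factor median was negative in all 19 fits that gave one, from -0.65 to -0.17. The 95% intervals of Neurod1 and Isl1 reach down to -0.72 and -1.07. The value of Chga, -0.99, lies outside the interval of the brighter Neurod1 probe set and inside those of its other probe set and of Isl1. However, the offset added to the signals shrinks the same proportional fall more in dim genes. Wild-type means were 49 for that brighter Neurod1 probe set and 112.8 for Chga, so -0.99 is too large a yardstick for Neurod1. With an offset of 1, which shrinks dim changes less, the log2 fold changes were -1.20 for Chga and -0.44 for Neurod1. Whether Neurod1 fell by the same proportion as Chga was not tested.

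Whether single genes of the classes differed in their response was tested on the log2 difference between both genes in each array, with an exact two-sided permutation test over the 28 pairs of the 8 tested genes. Of the 12 pairs of a granule gene with a transcription factor, 2 had groups that did not overlap. The log2 difference of Chgb minus Neurod1 changed by -0.72 (from 3.44 ± 0.13 in wild-types to 2.72 ± 0.30 in knockouts, SD, n = 4; exact p = 0.0286), and that of Scg3 minus Neurod1 by 0.92 (exact p = 0.0286). Chga against Neurod1 gave -0.67 (exact p = 0.0571) and Chga against Isl1 gave -0.59 (exact p = 0.2). Equal proportional falls do not cancel in such pairs, because the offset added to the signals shrinks the fall of the dimmer gene more. Wild-type means were 696.2 for Chgb and 49 for the brighter Neurod1 probe set, which stood for the gene. That probe set changed by -0.32 and the other by -0.58. In the fit with an offset of 1, Chgb changed by -1.08 and Neurod1 by -0.44. Whether Chgb and Neurod1 fell by different proportions was not tested. Within the granule genes, 5 of 15 pairs did not overlap: Chga and Chgb each against Scg2 (-1.24 and -1.29) and Scg3 (-1.59 and -1.64), and Scg3 against Pcsk1 (0.91), all with exact p = 0.0286. These are the smallest p that 4 against 4 arrays can give, and after adjustment over the 28 pairs they came to 0.114, so no pair passed the correction. Taken singly, 19.9% of all genes tested did not overlap. The share among pairs of other genes was not computed, and pairs that share a gene are not independent.

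**Figure D4:**
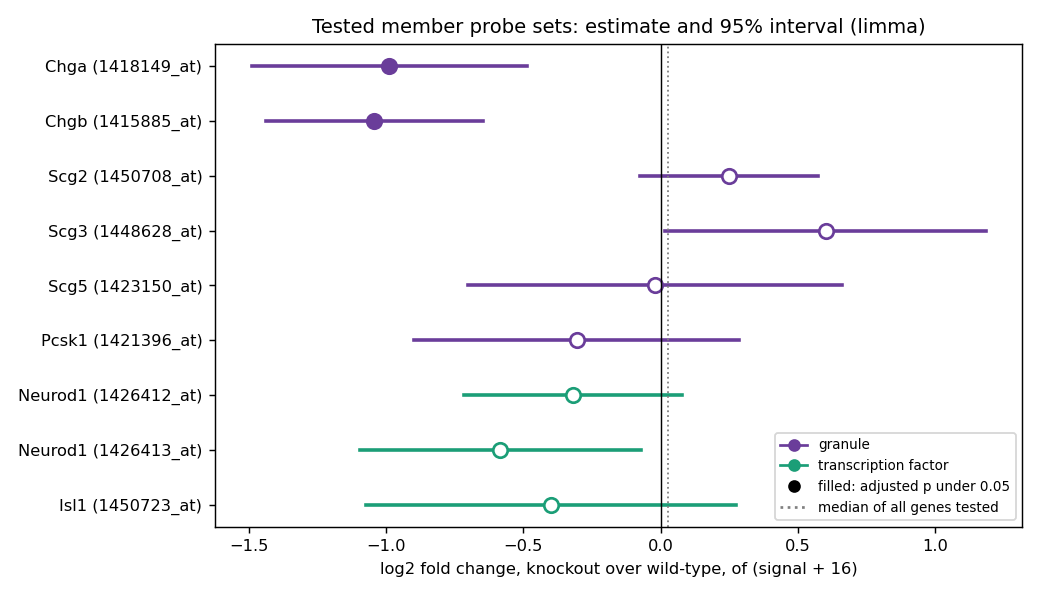
Log2 fold change (knockout over wild-type, of signal + 16) of the 9 tested member probe sets with 95% intervals from limma; filled points passed an adjusted p of 0.05 and the dotted line is the median of all genes tested. Chga and Chgb lie near -1, Scg2 and Scg3 lie to the right of 0, and the intervals of 1426412_at for Neurod1 and of Isl1 include 0.

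Other genes of the regulated secretory pathway were taken from a list of 24, of which 18 were tested. Of these, 3 were called lower and 0 higher, beside 8.50% and 6.60% of all genes tested. The median log2 fold change was -0.02. Slc18a1, the vesicular monoamine transporter of endocrine cells that loads serotonin into granules, gave 477, 535, 229 and 453 in wild-type and 66, 159, 112 and 103 in knockout samples. The groups did not overlap, with wild-type replicate 3 the nearest to the knockouts (log2 fold change -1.79 ± 0.27 SE, limma adjusted p = 0.00087). Rph3al, an effector of Rab3 and Rab27 in granule exocytosis, gave 289, 284, 182 and 308 against 91, 107, 105 and 98 (-1.25 ± 0.16 SE, adjusted p = 0.000277). Both were called in all 20 alternative fits, though a second, dimmer Slc18a1 probe set was not called. Rab3d, a GTPase of secretory vesicles, was called at -0.46 (adjusted p = 0.0268) but in only 9 of 20 alternatives, and its other probe sets were not called.

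The remaining granule list showed no call. Cpe, the carboxypeptidase that trims hormone precursors, gave 667 to 1365 in wild-type and 839 to 1735 in knockout samples (0.38, limma adjusted p = 0.326). Pam, which amidates peptides, gave -0.09 (adjusted p = 0.866), and Snap25 of the membrane fusion machinery gave 0.33 (adjusted p = 0.516). Tph1, the serotonin synthesis enzyme of gut endocrine cells, was too dim for the fit. It gave 48, 37, 26 and 35 in wild-type and 7, 2, 33 and 1 in knockout samples, with knockout replicate 3 within the wild-type range (exact permutation p = 0.0571). Cpe, Pam, Snap25 and Tph1 were named after their values were seen.

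A list of 18 further endocrine transcription factors had 11 tested members, with a median of 0.24. Of these, 0 were called in either direction in limma (3 at an unadjusted p under 0.05), beside 15.1% of all genes tested. Neurog3, the factor that starts the endocrine programme and named here after its values were seen, gave 51, 74, 71 and 41 in wild-type and 34, 33, 29 and 34 in knockout samples. Its groups did not overlap, and its log2 fold change was -0.61 ± 0.19 (SE, limma adjusted p = 0.0566), past the threshold in 4 of 19 alternatives, among them without wild-type replicate 4 (adjusted p 0.0328 to 0.324 over all 19). In Insm1, a zinc finger factor of endocrine precursors, wild-types gave 37 to 122 and knockouts 32 to 90 (-0.28, adjusted p = 0.607). Sox4 (0.42, adjusted p = 0.0958) and Atoh1, the factor of all secretory lineages (0.48, adjusted p = 0.0987), had positive estimates and did not pass. In 4 alternatives 1 member of the list was called higher: with array weights, in the arrays low in Xist, without wild-type replicate 3 and without knockout replicate 3.

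The median log2 fold change over the 10 gut hormone genes tested was -0.65. Of these, 4 were called lower and 0 higher, beside 8.50% and 6.60% of all genes tested. They were Sct (-1.11), Insl5 (-2.36), Pyy (-0.80) and Nts (-1.66), the call of Nts ending without wild-type replicate 2 (limma adjusted p = 0.0508), with the replicate block (0.0525) and with the Xist covariate (0.0852). Insl5 gave 29 in wild-type replicate 3, against 170 to 237 in the other wild-types and 5 to 25 in knockouts. Estimates were negative for 8 of the 10 genes and positive for 2, Gcg (0.16) and Ghrl (0.14), which were named after their values were seen. Gip, with 896, 800, 567 and 951 in wild-type and 769, 231, 503 and 160 in knockout samples, did not pass (-1.14, adjusted p = 0.0765), though it did in 3 of 20 alternatives, among them without knockout replicate 1 (0.0121). Its lowest arrays, knockout replicates 2 and 4, were also those of Chga and Chgb.

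Markers of other cells that make granins were read beside these values. Of 19 enteric neuron markers, 17 were tested. Of these, 1 was called higher (L1cam, 1.06, limma adjusted p = 0.00109) and 0 lower, beside 6.60% and 8.50% of all genes tested. The number higher was 4 without knockout replicate 3, 2 without wild-type replicate 3, 2 in the arrays low in Xist, 7 with array weights and 0 with the 3' to 5' covariate, where L1cam was lost (adjusted p = 0.0535). The median was 0.47, beside 0.03 over all genes. Of the 17, 14 were above 0 and 3 below, where 46.7% of all genes tested were below. Elavl4, Uchl1, Nefm, Vip, Elavl3 and Stmn3, named after their values were seen, were not called but had an unadjusted limma p under 0.05. The summed signal of the 18 markers on the array was 1112 to 1797 in wild-type and 1327 to 2269 in knockout samples, and no tested marker was at 0. On average the list lay 0.57, 0.47, -0.07 and 0.65 above the wild-type mean in knockout replicates 1 to 4, and of the wild-types replicate 3 was highest (0.31) and replicate 4 lowest (-0.21). Scg3 too was highest in knockout replicates 4 and 1 and in wild-type replicate 3 within its genotype, and lowest in wild-type replicate 4. Among knockouts, however, Scg3 was lowest in replicate 2 (48) and the list in replicate 3. Scg2 had another order, highest in wild-type replicate 1 (86) and in knockout replicate 2 (90). All 6 visceral smooth muscle markers had positive fold changes as well (median 0.50, 0 called in limma; 3 at an unadjusted p under 0.05). Of these, 3 were called higher without wild-type replicate 3, 2 without knockout replicate 3, 4 with array weights, and 1 each with the Xist covariate and in the arrays low in Xist. The part of gut wall tissue in the values of Scg2 and Scg3 was not tested.

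Pancreatic tissue could also add endocrine transcripts. Of 6 acinar markers and 2 islet markers tested, 0 were called (0 at an unadjusted p under 0.05 in limma), but their levels varied widely between arrays: Ctrb1 gave 313, 1584, 1388 and 211 in wild-type and 2603, 216, 324 and 274 in knockout samples. Of the islet markers, Ins2 gave 26, 28, 129 and 8 in wild-type and 159, 27, 137 and 26 in knockout samples, and the summed signal of the 5 on the array was 104 to 255 and 95 to 326. Ins2 was high in wild-type replicate 3 and knockout replicates 1 and 3. The mean of the acinar markers was high in wild-type replicates 2 and 3 (1.04 and 0.88 in log2 above the wild-type mean) and in knockout replicate 1 (1.89). Chga and Chgb were highest among wild-types in replicate 2 and lowest in replicate 3. Among knockouts they were highest in replicates 1 and 3. The part of pancreatic tissue in these values was not tested. Of the glial markers 1 of 5 was called, beside 15.1% of all genes tested. This was S100b (-0.89, limma adjusted p = 0.0379, called in 9 of 19 alternatives). The number of glial markers called higher was 1 without knockout replicate 3 and in the arrays low in Xist.

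The epithelium itself was present in all arrays. Of its 8 markers, 3 were called higher (Krt20 at 2.55, Krt19 at 0.70, Krt8 at 0.52) and 1 lower (Krt18 at -1.02). Over all genes tested, 6.60% were called higher and 8.50% lower. With the 3' to 5' covariate Krt19 (limma adjusted p = 0.0551) and Krt8 (0.16) were lost, and with the Xist covariate Krt8 (0.05005). The number lower was 2 without knockout replicate 3 and with array weights. Epcam (-0.07, limma adjusted p = 0.592) and Cdh1 (0.02, adjusted p = 0.901) mark all gut epithelial cells including endocrine ones. Their changes were the smallest of the 8 markers, with 95% intervals of -0.21 to 0.08 and -0.17 to 0.22. The estimates of Chga and Chgb lie outside these intervals, but Krt18 fell by a like amount. Cdx2 (-0.38, limma adjusted p = 0.162) and Vil1 (0.28, adjusted p = 0.273) were not called.

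**Figure D5:**
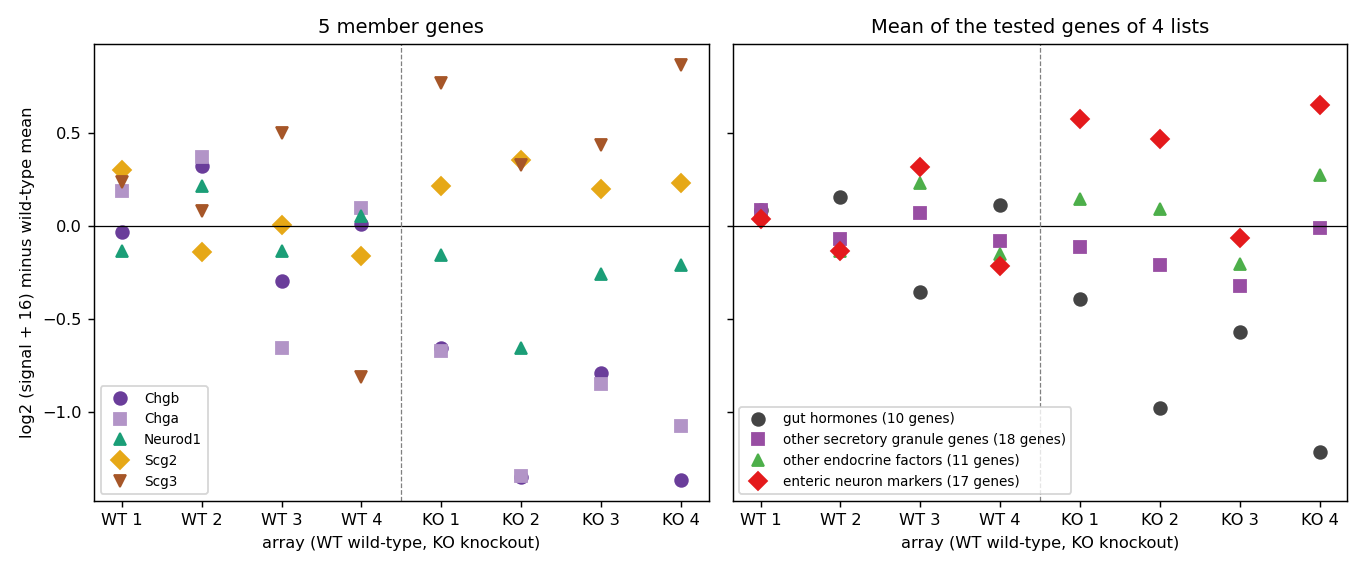
Log2(signal + 16) minus the wild-type mean in each array, for 5 member genes (left) and as the mean over the tested genes of 4 lists (right). Chgb and Chga lie below 0 in all 4 knockouts, as does the mean of the gut hormones, while Scg2 and Scg3 lie above 0 in all 4 and the enteric neuron markers in 3 of 4.

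The genes whose profile over the 8 arrays lay closest to that of Chgb were Abcb11, Map3k9, Man2b1, Amn and Chga. Likeness was measured as the root mean square difference of log2 values taken from each gene's own wild-type mean, which was 0.108 for Abcb11, the bile salt export pump, and 0.187 for Chga, beside a median of 0.841 over all genes. Their log2 fold changes ran from -1.17 (Man2b1, lysosomal alpha-mannosidase) to -0.99 (Chga). Closest to Neurod1 were C030034I22Rik, Carmil2, Tanc1, Wipf1 and Ptpn6 (differences of 0.0764 to 0.0952, median 0.401 over all genes), none of them called (limma adjusted p 0.0677 to 0.362).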

How the data were processed

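Each array has 1 linear intensity per probe set in the deposited table, scaled by the authors: every array has a trimmed mean of 150.05 (2% trimmed at each end). The signal algorithm is not given in the sources used here. Signals were taken as log2(signal + 16), so fold changes of dim genes are understated. The 64 control probe sets and the 40% of the others with the lowest mean (under a signal of about 23) were left out, and 27023 were fitted with limma 3.58.1 in R 4.3.3 (intensity trend, genotype as the only term). A gene was represented by its brightest tested probe set. Symbols came from the platform annotation: 34958 probe sets have 1 symbol, 932 several and 9211 none. Of those with 1, 34754 were found by Entrez ID in RefSeq of GRCm38.p6.

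The members and lists were chosen with earlier results of these data known. Named genes are the members, Plagl2, up to 5 called genes of each list and the 5 closest profiles to Chgb and Neurod1. Other genes fall outside this rule and were named with their values known. Some are flagged so where they appear. Among those not flagged are Insm1, Sox4, Atoh1, Gip, Cck, Ctrb1, Ins2, Epcam, Cdh1, Cdx2 and Vil1. In simulated arrays, 30.3% of 1.5-fold, 71.2% of 2-fold and 96.6% of 4-fold changes were called. These changes were planted only in probe sets above the median mean signal, and counted among those that passed the filter. The tested probe sets of Isl1 and Pcsk1 and the dimmer one of Neurod1 lay below that median (percentiles 42.7, 40.7 and 45.9). The rates do not cover them. The number of arrays limits the precision. Alternatives were other filters, offsets of 1 and 64, quantile normalization, array weights, a replicate block, covariates, a fit with no intensity trend, a threshold of 0.01, the mean of a gene's probe sets and each array left out.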

Additional observations from a re-analysis of the deposited data

Results flagged for a closer look

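The signals of all 16 member probe sets were searched in both genotypes for a single array far from the 3 others, by a gap rule that chance meets in about 1 of 20 groups. It was met in 2 of 32 groups. In wild-type replicate 1, Isl1 (1450723_at) gave 47, against 27 to 29 in the other wild-types. In wild-type replicate 4, Pax6 (1425960_s_at) gave 3, against 1 in the other wild-types, a difference at the bottom of the scale.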

How the results depend on the processing

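Chgb kept its call in all 20 alternatives and Chga in 14 of 20, always in the same direction, so the count of granule genes called lower was 2 or 1. It was 1 with the replicate block, the Xist covariate, only arrays low in Xist or a threshold of 0.01, and 1 to 2 with each array left out. No alternative called Scg2, Scg3, Scg5, Pcsk1, Neurod1 or Isl1. The granule median, -0.16 with all arrays, was -0.99 with the 60% filter, which leaves fewer genes, 0.12 with the Xist covariate, 0.12 without the arrays high in Xist (cause not tested for both), and -0.31 to 0.0066 with each array left out. The factor median, -0.36, was -0.65 with an offset of 1, which enlarges dim changes, -0.61 with the 3' to 5' covariate (cause not tested) and -0.47 to -0.22 with each array left out. The 60% filter left no transcription factor gene to test. Over the whole array, 1427 probe sets were higher and 1811 lower. These counts were 751 and 1164 with the replicate block, 471 and 919 with the 3' to 5' covariate and 660 and 1060 at a threshold of 0.01. The number higher was 2631 with array weights, 755 with the Xist covariate and 807 without the arrays high in Xist. With each array left out it was 876 (without knockout replicate 2) to 2085, and the number lower was 1296 to 2161. Deviations of same-numbered arrays correlated at -0.274 to -0.011, which gives no sign of a pairing by replicate number. This cannot settle whether same-numbered samples share a litter, which the labels do not give. For transcription factors, signals near the bottom of the scale limit what can be seen.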
